A study of Mus musculus with 87 samples.

Results

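LINE-1 RNA was followed through 41 RNA-seq libraries of early mouse embryos and mouse embryonic stem cells (mESCs). A repeat row was taken as LINE-1 when its RepeatMasker name starts with L1 or Lx, which gave 126 of the 1146 repeat names. The 6 names that start with L1Md (L1Md_A, L1Md_T, L1Md_Gf, L1Md_F, L1Md_F2 and L1Md_F3) were set against the 120 other names. The L1Md names cover 126672 loci and 178.65 Mb, and all LINE-1 names together cover 895284 loci and 532.14 Mb of the 1120.24 Mb annotated as repeats. L1Md loci were 1410.4 bases long on average, whereas the 85 mostly older names starting with L1M had a mean of 256.0 bases.

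LINE-1 is an autonomous retrotransposon that carries its own promoter at the 5′ end and encodes an RNA-binding protein and a protein with endonuclease and reverse transcriptase activity. In the mouse, the A, T and Gf subfamilies hold the copies that can still move, the F subfamilies are older, and Lx and most L1M names are relics of earlier waves. LINE-1 RNA is abundant in the 2-cell (2C) embryo, where it has been tied to chromatin opening and to the exit from the 2C state. In mESCs its promoters are held in check by DNA methylation, by H3K9 methylation through TRIM28 (KAP1) and SETDB1, and by the HUSH complex.

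The study asks how the homeobox factors OBOX4 and DUX act at zygotic genome activation. mESCs of the 129/Ola background with a doxycycline-inducible 3×FLAG-*Obox4* transgene, a single-cell clone, were sampled at 0, 12 and 48 h of doxycycline (n = 3 each). BDF1 zygotes from 8-week-old females were injected with antisense oligonucleotides (ASOs), which were scramble (40 µM), anti-*Obox4* (20 µM; *Obox4* KD), anti-*Dux* (20 µM; *Dux* KD) or both (40 µM in all; DKD). A rescue group got both ASOs with 100 ng/µL of codon-optimized *Obox4* mRNA. Each 2C library held 30 pooled embryos at 20 h after injection (n = 2 per group), and morulae were taken after scramble or both ASOs (n = 2 each). Single blastomeres came from *Dux* KO 2C-embryos that were *Obox4* WT, Het or KO (n = 2 each), so all 3 groups, controls included, lack *Dux*. Pladienolide B (PlaB), a splicing inhibitor, was given to all mESCs of the knockout experiment, namely WT cells and lines without *Obox4*, without *Dux* or without either (DKO; n = 3 each). Each KO line was 1 clone, the *Obox4* KO deletes most but not all intact copies of the gene, and the DKO was made from the *Obox4* KO line. CUT&RUN peak lists for OBOX4 (3 lists), DUX (1 list) and 3 histone marks were laid over the L1Md loci. The OBOX4 and DUX lists are anti-FLAG profiles of 3×FLAG-tagged transgenes induced in mESCs, not of the endogenous proteins. The histone lists come from WT and *Obox4* KO mESCs, each with and without PlaB. The study's methods call the 2C libraries independent biological replicates. The labels do not say whether libraries of a group came from separate cultures or litters, and where they did not, p-values measure only the spread between these libraries.

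Several labels could not be checked by RNA, and a few libraries stood apart. Repeat counts ran from 1744372 to 24242753 per library. *Obox4* reads summed over 39 annotated copies were 68.0 and 83.5 CPM after the anti-*Obox4* ASO and 68.4 and 76.0 CPM after scramble, and in blastomeres they did not fall with the *Obox4* genotype (19.4 and 27.9 CPM in KO, 20.7 and 31.0 CPM in WT). This sum is a limited check. It includes copies that the *Obox4* KO keeps, and multi-mapping reads were discarded from gene counts outside the blastomere tables. The study also stained OBOX4 and DUX protein in ASO-injected 2C-embryos and genotyped the blastomere embryos by PCR. *Dux* was 1.93 to 3.86 CPM in *Dux* KD and DKD embryos against 6.49 and 7.68 CPM after scramble, but 8.16 and 5.78 CPM in the rescue, which got the same ASO. It was at 0 in *Dux* KO and DKO mESCs and in every blastomere. In morulae both targets were higher in the libraries labelled DKD than after scramble (*Obox4* 3.74 and 7.93 CPM against 0.321 and 0.351 CPM, *Dux* 0.285 and 6.0 CPM against 0.15 and 0.0915 CPM), which goes against the label. DKD morula replicate 2 held 227 CPM of 5 two-cell marker genes, where the other 3 morula libraries held 4.05 to 7.17 CPM. DKO replicate 3 had 41.8% of its repeat counts on the DNA transposon name FordPrefect, against 21.2% and 24.2% in the other DKO libraries and 11.9% to 13.6% in WT, and *Obox4* KO replicate 3 had 18.6%. Values below are given with and without these libraries where they matter.

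Single L1Md loci could be named only from the peak lists, because the RNA tables sum all loci of a name. Of 13386 L1Md loci of 5000 bases or more, called full-length here, 271 held an OBOX4 peak in all 3 lists, with 1 chromosome left out of this count and of the loci named but not of the total, and 169 of these were L1Md_A, 100 L1Md_T, 1 L1Md_F and 1 L1Md_F2. The 3 with the highest fold enrichment in their weakest list lay outside genes and had the peak summit far from the 5′ end. They are L1Md_T on chr2 (80826043 to 80832863, minus strand, folds 27.9, 27.2 and 23.1), L1Md_F2 on chr14 (36018962 to 36024275, plus strand, folds 25.4, 24.1 and 21.7) and L1Md_T on chr3 (12230370 to 12235857, plus strand, folds 22.3, 18.2 and 18). Their 30-base windows around the summit of the first list are printed as read on the strand of the element, from the RefSeq copy of GRCm38.p6. Capitals mark a run that another printed window shares.
L1Md_T, chr2:80828051-80828080, 4783 bases from the 5′ end: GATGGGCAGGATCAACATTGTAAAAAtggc
L1Md_F2, chr14:36023150-36023179, 4188 bases from the 5′ end: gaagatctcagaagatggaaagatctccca
L1Md_T, chr3:12234765-12234794, 4395 bases from the 5′ end: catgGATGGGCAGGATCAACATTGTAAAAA
Both L1Md_T windows share 26 bases, and the full 30 bases occur in 17 and 19 full-length L1Md loci. The L1Md_F2 window occurs in 9309 full-length loci, so a read from it could come from any of these copies.

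Most summits were in the 5′ part. Of the 264 loci whose list 1 summit lay within the element, 220 had it in the first 1000 bases, where the LINE-1 promoter lies. The first 2 such L1Md_A loci by the same order, chosen after these values were seen, are shown for comparison. They lie on chr13 (8808567 to 8814963, plus strand, an intron of *Wdr37*) and chrX (144115844 to 144122053, plus strand, no gene).
L1Md_A, chr13:8809276-8809305, 709 bases from the 5′ end, folds 7.25, 7.21 and 6.45: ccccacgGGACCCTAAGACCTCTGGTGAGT
L1Md_A, chrX:144116358-144116387, 514 bases from the 5′ end, folds 6.31, 8.36 and 6.11: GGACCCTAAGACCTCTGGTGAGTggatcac
Both windows share 23 bases, although they start 709 and 514 bases into the element. They occur in 1626 and 1034 full-length loci.

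LINE-1 took a smaller share of repeat counts in 2C-embryos and blastomeres than in mESCs and morulae. L1Md names held 1.75% to 3.05% of repeat counts in 2C libraries and 1.49% to 2.99% in blastomeres, 4.16% to 5.84% in morulae, 3.76% to 4.23% in the induction series and 7.05% to 9.25% in PlaB mESCs. All LINE-1 names held 5.31% to 8.18%, 4.38% to 9.95%, 10.8% to 14.7%, 14.1% to 16.1% and 11.3% to 18.1% in the same order. The order depended on what the counts were set against. Per 1000 counts on genes, L1Md names had 5.04 to 9.19 counts in 2C libraries and 4.05 to 7.43 in blastomeres. They had 4.76 to 14.2 in morulae, 2.96 to 5.25 in the induction series and 7.72 to 13.9 in PlaB mESCs. All repeats had 288 to 357 counts per 1000 on genes in 2C libraries and 76.3 to 134 in the induction series. These experiments used different library kits, so their levels are set side by side and not tested. Per length, L1Md_A was the highest L1Md name in the induction series (327 to 430 CPM per Mb of annotated sequence over the libraries) and by its median in PlaB mESCs (692 to 1410 CPM per Mb, median 1010). L1Md_T had the highest median in morulae (277 to 382 CPM per Mb) and blastomeres (121 to 145 CPM per Mb), where its range overlapped with that of L1Md_A (94.8 to 128 CPM per Mb in blastomeres). In 2C-embryos L1Md_A (136 to 192 CPM per Mb), L1Md_F (92.8 to 174) and L1Md_F2 (86.8 to 165) overlapped. CPM of a LINE-1 name is taken over repeat counts here, with library sizes scaled by edgeR's trimmed mean of M-values (TMM).

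**Figure D1:**
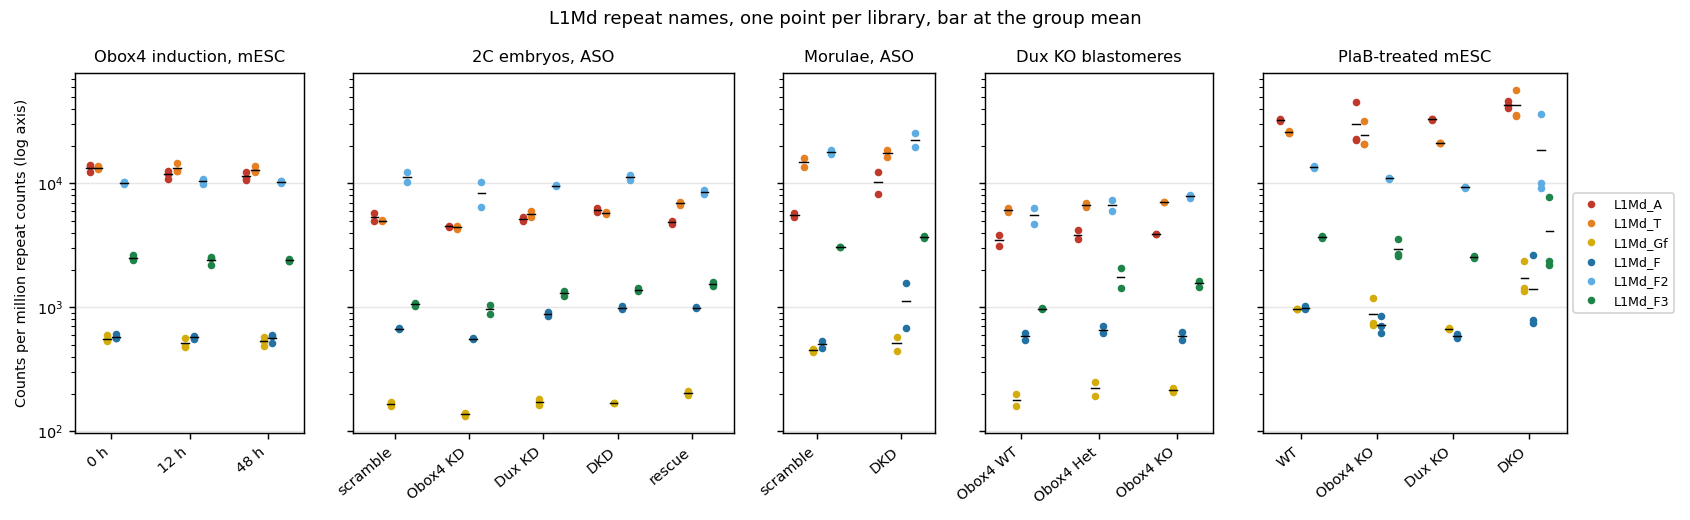
Level of each L1Md name (CPM of repeat counts, log axis) in every library of the 5 RNA-seq experiments, with 1 point per library and a bar at the group mean. L1Md_A, L1Md_T and L1Md_F2 lie above the other 3 names, and DKO replicate 3 in the PlaB panel lies above the other DKO libraries for all names but L1Md_A.

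Induction of *Obox4* left L1Md RNA close to its starting level. L1Md_A was 14100, 12300 and 13800 CPM at 0 h, 10900, 12600 and 11900 CPM at 12 h, and 12400, 10700 and 11100 CPM at 48 h. The groups overlapped at both times. Its log2 fold change was −0.18 (SE 0.08, adjusted p = 0.990, edgeR quasi-likelihood test) at 12 h and −0.23 (SE 0.08, adjusted p = 0.385) at 48 h. The other 5 L1Md names changed by −0.13 to 0.03 at 12 h and by −0.07 to 0.02 at 48 h on the log2 scale.

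A LINE-1 name was called at an adjusted p of at most 0.01 and a 2-fold change, and none of the 124 tested was called at 12 or 48 h. Over all 1015 repeat names the calls were 0% at 12 h and 0.296% at 48 h, and DESeq2 called no LINE-1 name either. At an unadjusted p under 0.05 there were 3 LINE-1 names of 37 repeat names at 12 h and 3 of 92 at 48 h, 1 of them an L1Md name at each time. L1_Mm varied widely between libraries, with 6360, 8820 and 5900 CPM at 0 h and 8830, 4990 and 17900 CPM at 12 h. In the same cells, 5 two-cell marker genes rose in sum from between 9.70 and 13.5 CPM to between 54.1 and 66.6 CPM at 48 h.

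In 2C-embryos the L1Md names had log2 fold changes below 0 after the anti-*Obox4* ASO, and none passed the call threshold. L1Md_F was 676 and 663 CPM after scramble and 565 and 549 CPM in *Obox4* KD (log2 fold change −0.27, SE 0.06, adjusted p = 0.0479). L1Md_A was 5780 and 4990 CPM against 4560 and 4430 CPM (−0.26, SE 0.08, adjusted p = 0.129), and L1Md_F2, the most counted L1Md name, was 12300 and 10300 CPM against 10200 and 6430 CPM (−0.44, SE 0.16, adjusted p = 0.250). L1Md_T, L1Md_Gf and L1Md_F3 gave log2 fold changes of −0.18, −0.28 and −0.14. In pooled embryos, fewer cells that hold an RNA and less of it per cell cannot be told apart.

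Both *Obox4* KD libraries lay below both scramble libraries for 5 of the 6 L1Md names, all but L1Md_F3, and this was so for 22.2% of the 1057 repeat names. The median log2 fold change was −0.26 over the L1Md names, 0.03 over the other LINE-1 names and 0.00 over all repeats. No LINE-1 name of 123 was called, and neither was any repeat (0%). 21 LINE-1 names, 5 of them L1Md, and 152 repeat names had an unadjusted p under 0.05, and DESeq2 also called 0 LINE-1 names. *Obox4* reads were not lower in these embryos, as given above, while the 5 two-cell markers summed to 600 to 651 CPM against 746 to 792 CPM after scramble.

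When *Dux* was lowered, L1Md_F and L1Md_F3 were higher, while L1Md_F2 was not. L1Md_F was 850 and 919 CPM in *Dux* KD (log2 fold change 0.40, SE 0.06, adjusted p = 0.00127) and 959 and 1030 CPM in DKD (0.57, SE 0.06, adjusted p = 2.3e-05). L1Md_F3, at 1030 and 1090 CPM after scramble, was 1230 and 1360 CPM in *Dux* KD (0.29, SE 0.08, adjusted p = 0.0359) and 1350 and 1420 CPM in DKD (0.39, SE 0.08, adjusted p = 0.0045). In both groups every library was above both scramble libraries for L1Md_F, L1Md_F3 and L1Md_T, and in DKD also for L1Md_A. These were 3 of 6 L1Md names in *Dux* KD and 4 of 6 in DKD, beside 28.3% and 31.8% of the 1057 repeats. L1Md_A (4940 and 5330 CPM in *Dux* KD, 5920 and 6270 CPM in DKD) and L1Md_F2 (9480 and 9640 CPM, 10700 and 11700 CPM) gave log2 fold changes between −0.24 and 0.18 that did not pass. L1Md_T was 5030 and 4990 CPM after scramble and 5620 and 5890 CPM in DKD (0.20, adjusted p = 0.069).

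The *Obox4* ASO was thus followed by lower L1Md_F and L1Md_A with *Dux* present (−0.27 and −0.26) and by higher values with *Dux* lowered (DKD against *Dux* KD, 0.17 and 0.25). The total ASO dose was lower in *Obox4* KD than after scramble and higher in DKD than in *Dux* KD. Dose and *Dux* background therefore cannot be told apart in this contrast, and the part of dose was not tested. The difference of the 2 effects was 0.43 for L1Md_F (SE 0.08, adjusted p = 0.0184, edgeR interaction term) and 0.51 for L1Md_A (SE 0.11, adjusted p = 0.0434). Leaving out 1 library at a time kept both differences above 0 and moved the adjusted p to between 0.021 and 0.119 for L1Md_F and between 0.0153 and 0.212 for L1Md_A.

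Calls among the 123 LINE-1 names fell outside L1Md. None was called in *Dux* KD, where 41 LINE-1 names and 218 repeats had an unadjusted p under 0.05, DESeq2 called 0 and all repeats gave 0.284% lower calls and 0% higher calls. In DKD, Lx3B fell and L1ME5 and L1M8 rose (1 lower and 2 higher, with 1.04% of repeats called lower and 0.946% called higher). Lx3B, an old rodent name, was 626 and 578 CPM after scramble, 573 and 530 CPM in *Obox4* KD, 340 and 351 CPM in *Dux* KD, 292 and 296 CPM in DKD and 379 and 432 CPM in the rescue. Every *Dux* KD, DKD and rescue library was below every scramble library. Its log2 fold change was −0.13 in *Obox4* KD (adjusted p = 0.418), −0.80 in *Dux* KD (SE 0.07, adjusted p = 1.9e-05) and −1.03 in DKD (SE 0.07, adjusted p = 1.0e-06). The rescue stood 0.46 above DKD (adjusted p = 0.000825) and 0.57 below scramble on the log2 scale (log2 fold change −0.57, adjusted p = 0.000144).

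Most other Lx names were also lower in DKD, by less. In DKD, 19 of 21 Lx names had both libraries below both scramble libraries, with a median log2 fold change of −0.23. In the rescue against DKD, 20 of 21 were higher in both libraries, with a median of 0.19. Over all repeats 30.3% were lower in both DKD libraries and 26.9% were higher in both rescue libraries, with medians of 0.01 in each comparison. These comparisons share the DKD libraries, so the fall and the rise are not independent of each other. The rise was also measured against repeat counts. With library sizes of the genes table, the rescue against DKD gave a median of −0.08 over all LINE-1 names outside L1Md, instead of 0.07. The median of all repeats there went from 0.01 to −0.14, and that of the Lx names alone is not given under this scaling. *Dux* KD alone gave nearly the same fall, with 18 of 21 Lx names below scramble in both libraries (26.3% of repeats) and a median of −0.15. L1ME5 was 3.02 and 2.87 CPM after scramble and 5.6 and 8.43 CPM in DKD (1.22, SE 0.28, adjusted p = 0.00806), and L1M8 was 3.47 and 4.13 CPM against 8.79 and 8.74 CPM (1.21, SE 0.27, adjusted p = 0.00783). Both are low-count names of old mammalian LINE-1, and without 1 library at a time between 0 and 1 LINE-1 names stayed called in DKD. In DKD the 5 two-cell markers summed to 186 to 196 CPM.

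In the rescue L1Md_F, L1Md_F3, L1Md_T and L1Md_Gf lay above scramble, L1Md_F2 lay below it and L1Md_A overlapped with it. Over all 1057 repeats, 27.7% lay above and 25.5% below scramble in the same way. At an adjusted p of at most 0.01 with no fold minimum, 3 L1Md names and 2.55% of repeats were higher. L1Md_F was 1000 and 980 CPM in the rescue, level with DKD (log2 fold change 0.00) and above scramble (0.57, adjusted p = 3.7e-05). L1Md_T was 7050 and 6710 CPM, above scramble (0.46, SE 0.07, adjusted p = 0.00108) and above DKD (0.26, adjusted p = 0.0388). L1Md_F3 was 1610 and 1480 CPM (0.55 above scramble, SE 0.08, adjusted p = 0.000619) and L1Md_Gf was 209 and 197 CPM (0.29, adjusted p = 0.0147). L1Md_A went the other way against DKD (5010 and 4720 CPM, −0.32, SE 0.08, adjusted p = 0.0216), as did L1Md_F2 (8840 and 8220 CPM, −0.39, adjusted p = 0.152), which gave −0.40 against scramble (adjusted p = 0.134). With library sizes taken from the genes table instead, the median of all repeats in the rescue against scramble shifted from 0.01 to −0.21 and that of the L1Md names from 0.37 to 0.15.

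The 1 LINE-1 name called in the rescue was L1_Mm, both against scramble (0.378% of repeats lower, 0% higher) and against DKD (0.284% lower, 0.189% higher). L1_Mm was 2610 and 1990 CPM after scramble, 3000 and 1620 CPM in *Obox4* KD, 2020 and 2090 CPM in *Dux* KD and 2120 and 2390 CPM in DKD. In the rescue it was 753 and 749 CPM, below every other 2C library. The log2 fold change was −1.62 against scramble (SE 0.21, adjusted p = 0.000305) and −1.59 against DKD (SE 0.21, adjusted p = 0.000467). Among the 3 most counted names outside L1Md, L1_Mus1 rose in the rescue by less than 2-fold (1680 and 1820 CPM after scramble, 2140 and 2060 CPM in the rescue, log2 fold change 0.27, adjusted p = 0.00988), L1_Mus3 gave 0.22 (adjusted p = 0.0308) and Lx8 gave 0.01.

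**Figure D2:**
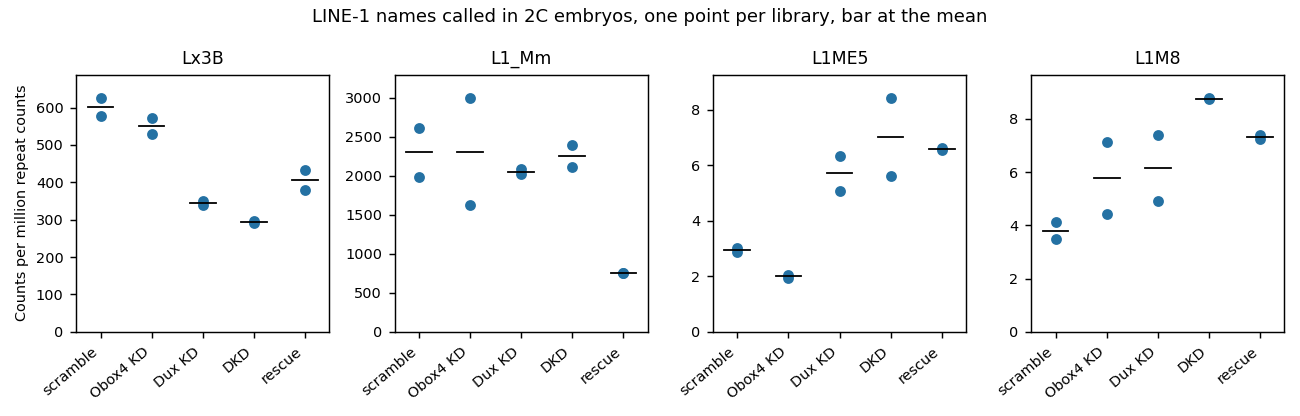
Level (CPM of repeat counts, axis from 0) of the 4 LINE-1 names called in 2C-embryos, with 1 point per library and a bar at the mean of each ASO group. Lx3B falls from 626 and 578 CPM after scramble to 292 and 296 CPM in DKD, and L1_Mm is low in the rescue alone (753 and 749 CPM).

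In morulae 5 L1Md names lay higher in the libraries labelled DKD, but no LINE-1 name passed, and the target RNAs of these libraries went against the label. L1Md_A was 5370 and 5760 CPM after scramble and 8250 and 12400 CPM after both ASOs (log2 fold change 0.89, SE 0.26, adjusted p = 0.277). L1Md_F was 473 and 529 CPM against 682 and 1570 CPM (1.17, SE 0.40, adjusted p = 0.291). For 5 of 6 L1Md names, all but L1Md_Gf, both DKD libraries were above both scramble libraries, which held for 25.7% of 1052 repeat names. The L1Md median was 0.30, against 0.04 over other LINE-1 names and 0.02 over all repeats.

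None of 123 LINE-1 names and none of the repeats (0%) was called. 13 LINE-1 names and 155 repeats had an unadjusted p under 0.05, and DESeq2 called 1 LINE-1 name. DKD morula replicate 2, the library with 227 CPM of two-cell markers, gave the highest L1Md_A and L1Md_F values. Without it the log2 fold changes were 0.57 for L1Md_A and 0.45 for L1Md_F, and without replicate 1 they were 1.15 (adjusted p = 0.0208) and 1.64 (adjusted p = 0.0087). The part of this library's stage markers in the L1Md values was not tested.

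In *Dux* KO blastomeres L1Md_F3 was higher without 1 or both *Obox4* alleles, short of the threshold. It was 984 and 960 CPM in *Obox4* WT, 2090 and 1430 CPM in Het (log2 fold change 0.86, SE 0.22, adjusted p = 0.326) and 1640 and 1470 CPM in KO (0.68, SE 0.22, adjusted p = 0.260). L1Md_F2 was 4670 and 6360 CPM in WT, 7340 and 5960 CPM in Het and 8130 and 7660 CPM in KO (0.52 in KO, SE 0.23, adjusted p = 0.662). L1_Mm was 390 and 449 CPM in WT, 975 and 800 CPM in Het (1.08, SE 0.22, adjusted p = 0.0623) and 672 and 561 CPM in KO (0.56). Every Het and KO library exceeded both WT libraries for L1Md_F3 and L1_Mm.

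None of 122 LINE-1 names was called in Het (0% of 999 repeats) or KO (0.1% of repeats higher, 0.2% lower). 8 and 9 LINE-1 names, and 49 and 66 repeats, had an unadjusted p under 0.05, and DESeq2 called 0 LINE-1 names in each. The L1Md median was 0.23 in both comparisons, against −0.03 and 0.03 over all repeats. All libraries were higher for 3 of 6 L1Md names in Het (15.6% of repeats) and 5 of 6 in KO (17.2%). With library sizes of the genes table the Het median turned to −0.15, with all repeats at −0.40, and the KO median became 0.43, with all repeats at 0.22.

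In PlaB mESCs, *Dux* KO cells had less RNA of 5 L1Md names and as much L1Md_A as WT. L1Md_A was 32600, 32900 and 31700 CPM in WT and 32900, 33200 and 32500 CPM in *Dux* KO (log2 fold change 0.02). L1Md_F2 was 13500, 13300 and 13700 CPM in WT and 9320, 9430 and 9190 CPM in *Dux* KO (−0.54), and L1Md_F was 988, 970 and 1020 CPM against 588, 609 and 569 CPM (−0.75, SE 0.38, adjusted p = 0.218). Every *Dux* KO library was below every WT library for all L1Md names but L1Md_A, which was so for 28.6% of the 1054 repeats. No L1Md name passed in *Dux* KO, in a fit that shares 1 spread over all 4 lines, libraries that stand apart included. With library sizes of the genes table all 6 L1Md names were below 0 (L1Md_A at −0.31, adjusted p = 0.244) and L1Md_F was called lower (−1.08, adjusted p = 0.00732). The L1Md median was −0.53, against −0.08 over other LINE-1 names and 0.01 over all repeats.

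*Obox4* KO cells gave lower L1Md values in 2 of 3 libraries. L1Md_A was 22600 and 22900 CPM in replicates 1 and 2 and 45400 CPM in replicate 3, on both sides of WT, and the log2 fold change was −0.09. Without replicate 3 it was −0.50 (adjusted p = 0.00158). L1Md_F2 was 11100, 10900 and 11000 CPM, all below WT (−0.30), and L1Md_T was 20700, 20800 and 31700 CPM against 25600, 26500 and 25500 CPM in WT (−0.09). Replicate 3 also differed in its *Obox4* reads, at 11.9 CPM against 4.68 and 3.65 CPM in the other *Obox4* KO libraries and 15.6 to 17.0 CPM in WT.

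DKO cells had more L1Md_T and L1Md_Gf relative to all repeat counts. L1Md_T was 35300, 35700 and 57200 CPM (log2 fold change 0.72, SE 0.20, adjusted p = 0.0198) and L1Md_Gf was 1420, 1360 and 2350 CPM against 968, 970 and 964 CPM in WT (0.82, SE 0.22, adjusted p = 0.0164). L1Md_A was 40700, 45900 and 43200 CPM (0.42, adjusted p = 0.183). All 3 DKO libraries were above all WT libraries for these 3 names, which was so for 16.5% of the repeats, and none reached 2-fold. L1Md_F2 and L1Md_F3 rested on replicate 3. L1Md_F2 was 9140, 10100 and 36200 CPM and L1Md_F3 was 2180, 2350 and 7740 CPM (3730, 3690 and 3630 CPM in WT). Without DKO replicate 3 the log2 fold changes of L1Md_F2 and L1Md_F3 turned from 0.45 and 0.15 to −0.49 (adjusted p = 1.6e-05) and −0.70 (adjusted p = 0.00041), and that of L1Md_F from 0.47 to −0.38 (adjusted p = 0.0116), while L1Md_T and L1Md_Gf stayed higher (0.46 and 0.53, adjusted p = 0.0262 and 0.026).

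The direction in DKO depended on what the counts were set against. Outside FordPrefect, L1Md names held 10.9%, 11.7% and 12.1% of repeat counts in DKO and 9.22%, 9.31% and 8.99% in WT. Per 1000 counts on genes, however, L1Md names had 7.72, 9.99 and 8.83 counts in DKO, 10.1, 9.89 and 9.79 in *Dux* KO, 10.0, 9.67 and 10.1 in *Obox4* KO and 13.4, 13.9 and 12.7 in WT, so every KO library was below every WT library. With library sizes of the genes table the L1Md median in DKO changed from 0.46 to −0.53, with all repeats at −0.92 and other LINE-1 names at −1.15. In *Dux* KO it went from −0.53 to −0.85, with all repeats at −0.32, and in *Obox4* KO from −0.22 to −0.59, with all repeats at −0.35. The DKO medians include replicate 3, without which 3 of 6 L1Md names were below 0 over repeat counts, as given above. In the single KOs the L1Md median was below that of all repeats under both scalings. PlaB blocks splicing, 28.3% of L1Md loci and 35.1% of other LINE-1 loci lie inside gene bodies, and counts from retained introns cannot be told apart here from LINE-1 transcripts.

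**Figure D3:**
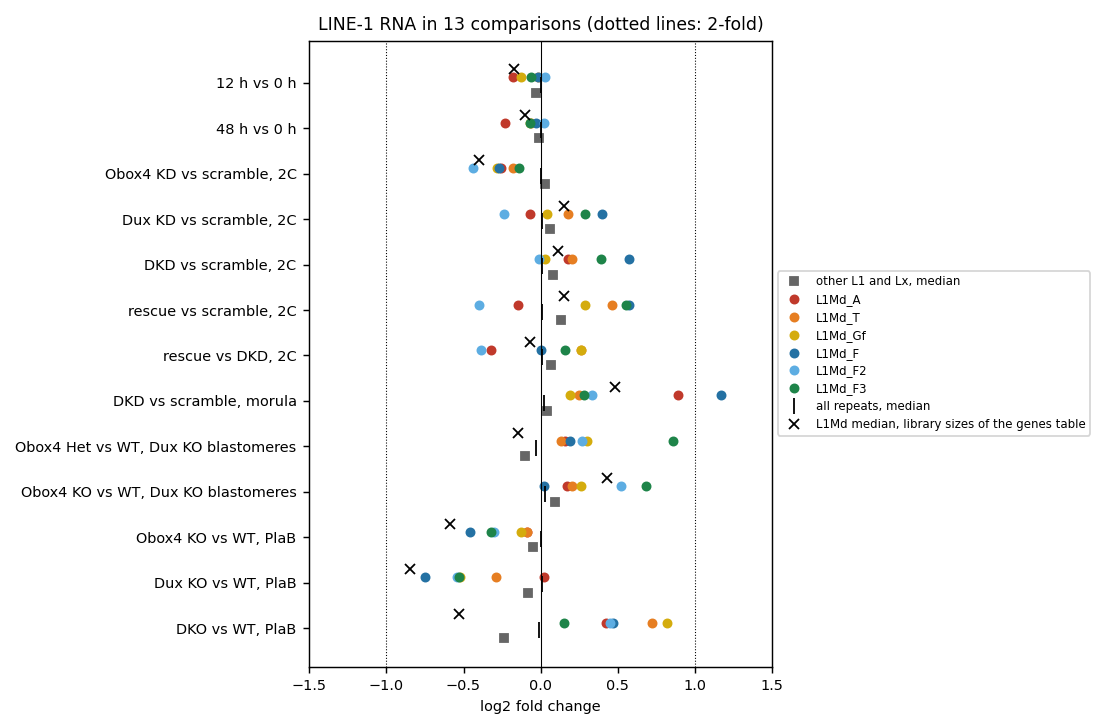
Log2 fold change of each L1Md name (coloured points) in the 13 comparisons, with the medians of other LINE-1 names (grey squares) and of all repeats (bars) and the L1Md median under library sizes of the genes table (crosses). Dotted lines mark 2-fold. L1Md points lie left of 0 in *Obox4* KD 2C-embryos, and in DKO mESCs the points lie right of 0 while the cross lies at −0.53.

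Calls among the 125 LINE-1 names tested in PlaB mESCs fell on old L1M names. L1MEg1 was 19.3, 18.2 and 20.4 CPM in WT and 9.5, 10.3 and 8.92 CPM in *Obox4* KO (log2 fold change −1.0, SE 0.19, adjusted p = 0.00863), the 1 lower call beside 1.23% of repeats. This call sat at the fold threshold and was lost when any 1 of the 6 libraries was left out. L1M3d was 24.5, 20.9 and 19.9 CPM in WT and 10.4, 10.5 and 9.08 CPM in *Dux* KO (−1.12, SE 0.17, adjusted p = 0.000901), the 1 lower call beside 3.61% of repeats. In DKO both names were called lower (L1M3d at 10.9, 7.14 and 7.10 CPM, −1.35, SE 0.21, adjusted p = 0.000666; L1MEg1 at 7.24, 11.2 and 9.47 CPM, −1.03, SE 0.22, adjusted p = 0.00469), beside 3.8% of repeats lower and 1.04% higher. No LINE-1 name was called higher in any of the 3 KOs.

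The Lx names were lower in all 3 KO lines. In *Obox4* KO, *Dux* KO and DKO, 19, 21 and 18 of 21 Lx names had all 3 libraries below all WT libraries (22.1%, 28.6% and 24.9% of repeats), with medians of −0.23, −0.41 and −0.41. Lx2A, named after its values were seen, was 196 CPM in each WT library and 109, 117 and 115 CPM in *Obox4* KO (−0.78, adjusted p = 0.000921). It was 92.5, 105 and 113 CPM in *Dux* KO (−0.92, adjusted p = 8.6e-05) and 99.5, 91.7 and 127 CPM in DKO (−0.93, adjusted p = 0.00017), so it passed the p threshold in all 3 lines without reaching 2-fold. These 3 comparisons share the WT libraries. The cell state markers moved in the same lines. The 5 two-cell markers summed to 687 to 763 CPM in WT, 308 to 629 CPM in *Obox4* KO and at most 0.346 CPM in *Dux* KO and DKO, and 5 morula markers rose from 150 to 158 CPM in WT to 1770 to 2110 CPM in DKO. Their part in the LINE-1 values was not tested.

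The *Obox4* KO also went with different changes in WT and *Dux* KO cells. With *Dux* present L1Md_Gf and L1Md_T changed by −0.13 and −0.09, and on the *Dux* KO background (DKO against *Dux* KO) by 1.34 and 1.01. The differences were 1.48 for L1Md_Gf (SE 0.31, adjusted p = 0.0223, edgeR interaction term) and 1.1 for L1Md_T (SE 0.28, adjusted p = 0.0485). They were 1.18 (adjusted p = 0.00645) and 0.83 (adjusted p = 0.0177) without DKO replicate 3, and 1.75 (adjusted p = 0.00213) and 1.33 (adjusted p = 0.00733) without *Obox4* KO replicate 3. Both differences stayed above 0 without any other library, but without any 1 *Dux* KO or WT library, or *Obox4* KO replicate 1 or 2, the adjusted p was 0.102 to 0.122 for L1Md_T and 0.0485 to 0.0592 for L1Md_Gf. *Obox4* reads were already at 0.116 to 0.13 CPM in *Dux* KO cells and at 0 to 0.192 CPM in DKO, so these 2 lines did not differ measurably in *Obox4* RNA. Each line is 1 clone, so genotype and clone cannot be told apart. The share of all repeats that passed the interaction term is not given here, for these cells or for 2C-embryos.

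Genes known to act on LINE-1 were read from a list of 63, of which 61 were found and 60 tested in each experiment. *Trim28*, which encodes the corepressor KAP1, rose on *Obox4* induction from 1550 to 3420 CPM (of gene counts) at 12 h (log2 fold change 1.14, SE 0.14, adjusted p = 0.00155) and to 3270 CPM at 48 h. It was the 1 higher call of 60 at 12 h (0.612% of genes higher, 0.145% lower). At 48 h 5 of 60 were higher and 0 lower (3.37% and 0.574% of genes), and beside *Trim28* these were the de novo DNA methyltransferases *Dnmt3a* (30.6 to 69.5 CPM) and *Dnmt3b* (49.8 to 102 CPM) and the piRNA genes *Mael* and *Mov10l1*. No L1Md name passed at these times, as given above.

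In 2C-embryos *Ago2*, the slicing Argonaute, was 23.0 CPM after scramble and 58.3, 58.7, 70.3 and 59.1 CPM in *Obox4* KD, *Dux* KD, DKD and the rescue, with log2 fold changes of 1.34 to 1.61. It was the 1 call of 60 in *Obox4* KD (0.23% of genes higher, 0.182% lower) and in the rescue against scramble (1.43% higher, 1.24% lower). *Dux* KD added *Tet1*, a 5-methylcytosine oxidase, and *Ehmt2*, an H3K9 methyltransferase, for 3 higher calls (3.25% of genes higher, 1.05% lower). DKD had 6 higher and 2 lower calls (8.42% and 3.16% of genes). The H3K9 methyltransferase *Setdb1* fell from 215 to 106 CPM (−1.02, SE 0.09, adjusted p = 1.19e-07) and the piRNA-binding *Piwil1* from 51.4 to 16.1 CPM (−1.68), while *Tet1* rose from 39.2 to 128 CPM and *Piwil2* from 8.74 to 31.5 CPM. In the rescue against DKD *Piwil1* was higher and *Piwil2*, *Mov10l1* and *Suv39h1* were lower (1.1% of genes higher, 3.27% lower).

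HUSH and maintenance methylation genes did not pass in DKD 2C-embryos. The log2 fold changes were 0.46 for *Morc2a*, −0.15 for *Mphosph8*, −0.04 for *Dnmt1* and −0.20 for *Uhrf1*, and those of *Trim28* and *Mov10* were 0.07 and −0.06. No list gene was called in morulae or blastomeres, where no gene at all was called (0%).

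In PlaB mESCs *Nelfa*, a pausing factor that is high in 2C-like cells, fell from 391 CPM in WT to 175 CPM in *Obox4* KO, 70.7 CPM in *Dux* KO and 62.9 CPM in DKO (log2 fold changes −1.16, −2.47 and −2.63). It was the 1 list gene called in *Dux* KO (1.62% of genes higher, 4.7% lower). *Obox4* KO had 4 higher and 5 lower of 60 (4.92% and 3.96% of genes), and DKO had 7 and 7 (9.25% and 8.79%). *Tet1* fell from 764 to 321 and 278 CPM in *Obox4* KO and DKO, *Tet3* rose from 12.6 to 33.6 and 44.3 CPM, and the chromatin remodeller *Atrx* fell by 1.32 and 1.40 on the log2 scale. In DKO the LINE-1 RNA-binding helicase *Mov10* rose from 51.9 to 154 CPM (1.57, SE 0.33, adjusted p = 0.00232).

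OBOX4 peaks covered L1Md sequence less densely than the genome as a whole, but were frequent on full-length copies of some names. Regions held by 2 or more of the 3 lists overlapped 621 of 126315 L1Md loci on the assembled chromosomes (0.492%, 95% Wilson interval 0.455% to 0.532%, counting error only). They covered 0.181% of L1Md bases, 0.0622% of other LINE-1 bases, 0.414% of repeat bases and 0.458% of the genome. Among full-length loci 486 of 13386 held a region (3.63%, 3.33% to 3.96%), against 135 of 112929 shorter ones (0.12%). Longer loci offer more sequence to overlap, and bases under peaks were 0.343% in full-length loci and 0.0536% in shorter ones.

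By the full-length share L1Md_A came first, followed by L1Md_T, L1Md_Gf and the F names. It was 8.44% for L1Md_A (278 of 3294, interval 7.54% to 9.44%), 3.98% for L1Md_T (201 of 5045, 3.48% to 4.56%), 2.75% for L1Md_Gf (3 of 109, 0.94% to 7.78%), 0.637% for L1Md_F (1 of 157), 0.238% for L1Md_F3 (2 of 840) and 0.0254% for L1Md_F2 (1 of 3941). The interval of L1Md_Gf holds the value of L1Md_T, and that of L1Md_F (0.113% to 3.52%) holds the value of L1Md_Gf, so these neighbours were not separated. In full-length L1Md_A 0.833% of bases lay under OBOX4 regions, above the genome's 0.458%. Most of these peaks were weak. At a −log10 q of 10 or more, 54 full-length loci (0.403%) and 40 full-length L1Md_A loci (1.21%) remained, and 0.192% of full-length L1Md_A bases lay under peaks against 0.295% of the genome. The 3 lists gave 5.7%, 3.12% and 3.93% of full-length L1Md loci. No peak list of an IgG or untagged FLAG library was used here, so the level that a control would give on L1Md loci is not known.

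The peaks sat near the 5′ end, and the 2 names peaked at different distances. Regions covered 7.04% of full-length L1Md_A loci 400 to 500 bases from the 5′ end, 0.455% at 400 to 500 bases upstream of it and 0.0304% at 3000 to 3100 bases. L1Md_T reached 2.78% at 600 to 700 bases.

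**Figure D4:**
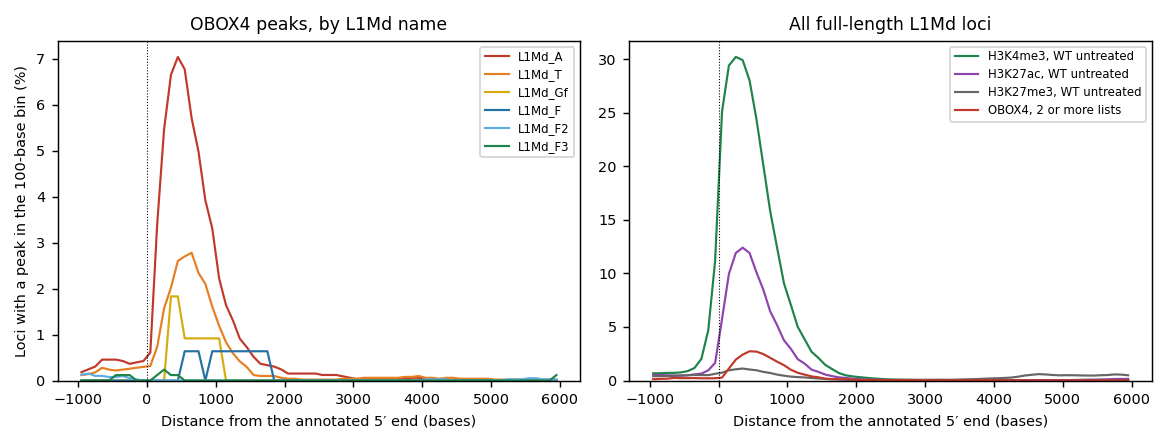
Percent of full-length L1Md loci whose sequence lies under a peak, in bins of 100 bases by distance from the 5′ end, for OBOX4 by name and for histone marks in WT mESCs. OBOX4 reaches 7.04% on L1Md_A and 2.78% on L1Md_T, and H3K4me3 reaches 30.2% at 200 to 300 bases.

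Strings close to the core bound by OBOX-type homeodomains were searched on both strands, namely GGGATCA with the variant GGGATCT, and GGGATTA with the variant GGGATTT. They were rare at these sites. 1 of 264 windows of 300 bases around L1Md summits held one (0.379%). The share was 23.8% at all 27713 summits of the first OBOX4 list, 36.5% at the 1000 summits with the highest fold and 12% in 32544 RefSeq promoters of 300 bases. In the first 1000 bases of full-length loci the strings were in 5.01% of L1Md_A, 8.82% of L1Md_T and 0.917% of L1Md_Gf, and in 49.0%, 42.7% and 47.7% of L1Md_F, L1Md_F2 and L1Md_F3. The F names had more of these strings and lower full-length shares of OBOX4 regions than L1Md_A, L1Md_T and L1Md_Gf. Within the latter group the order did not hold, since L1Md_Gf had the fewest strings and the lowest share (3 of 109 loci). Copies of a name share sequence, so these loci are not independent sites. The printed windows hold none of them.

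Full-length L1Md loci with an OBOX4 region were also almost all under active histone marks. In WT mESCs without PlaB, 98.4% of the 486 loci held an H3K4me3 peak and 94.2% an H3K27ac peak in 2 or more lists, against 28.4% and 11.2% of the 12900 loci without an OBOX4 region. H3K27me3 was on 11.9% and 1.42%. H3K4me3 marks active promoters, H3K27ac active promoters and enhancers, and H3K27me3 Polycomb repression. The OBOX4 lists come from induced cells and the histone lists from another line, and both assays can place reads of near-identical copies on the same well-mapped loci, whose part was not tested.

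H3K4me3 was also frequent on L1Md_Gf, L1Md_T and L1Md_A and rare on the F names. It was on 57.8% ± 0.900 (SD, n = 3 lists) of full-length L1Md_Gf, 48.6% ± 0.666 of L1Md_T, 45.4% ± 1.04 of L1Md_A, 8.53% ± 0.0693 of L1Md_F3, 1.91% of L1Md_F and 1.2% ± 0.0794 of L1Md_F2. H3K27ac was on 29.4% ± 3.98, 24.0% ± 6.58 and 18.5% ± 4.46 of L1Md_Gf, L1Md_T and L1Md_A. The ranking between L1Md_A, L1Md_T and L1Md_Gf differed from that of OBOX4, where L1Md_A was first, while the F names were low in each.

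**Figure D5:**
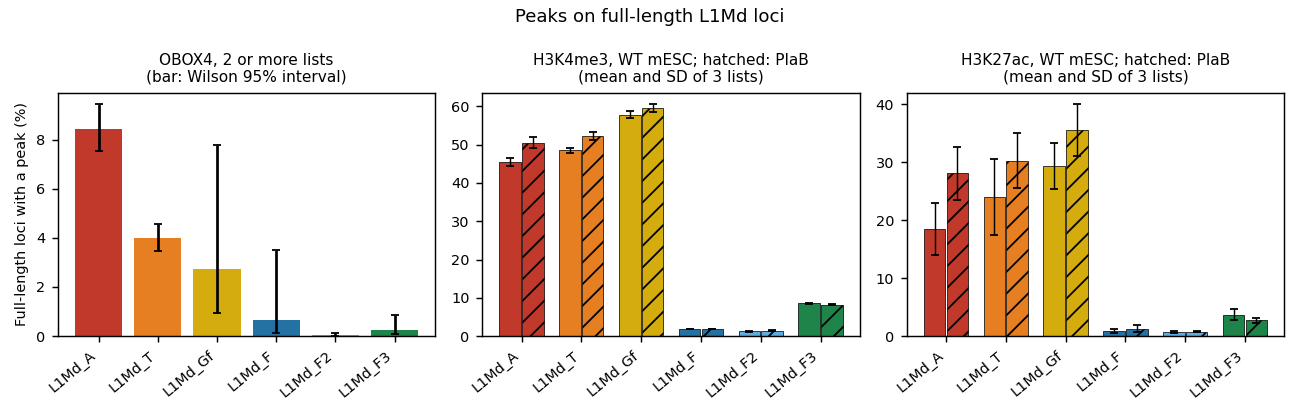
Percent of full-length loci of each L1Md name under OBOX4 regions (bars with 95% Wilson intervals) and under H3K4me3 and H3K27ac peaks in mESCs (means of 3 lists with SD, plain bars without PlaB and hatched bars with PlaB). L1Md_A, L1Md_T and L1Md_Gf hold most peaks of each kind, and OBOX4 reaches 8.44% on L1Md_A.

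PlaB went with more H3K4me3 on L1Md loci while the marked genome shrank. In WT mESCs, 30.5%, 31.5% and 30.7% of full-length L1Md loci were under H3K4me3 without PlaB and 32.9%, 34.4% and 33.3% with it. All 3 PlaB lists were above all untreated lists, whereas the genome under H3K4me3 was 2.63%, 2.53% and 2.48% without PlaB and 1.62%, 1.59% and 1.44% with it. 3 lists against 3 cannot reach a p under 0.1 in an exact test, so none was run. Over all L1Md loci the means were 4.27% and 3.98%, a difference of 0.287 points. H3K27ac on full-length L1Md loci was 10.5%, 14.5% and 17.9% without and 15.8%, 21.5% and 19.8% with PlaB, and overlapped.

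Active marks on full-length L1Md loci overlapped between *Obox4* KO and WT cells. Without PlaB, H3K4me3 was on 31.4%, 35.3% and 34.1% of full-length L1Md loci in *Obox4* KO, overlapping with WT, and the L1Md loci differed by 0.29 points (4.27% against 3.98%). H3K27ac was on 17.6%, 20.4% and 17.4%, also overlapping with WT (difference of 0.553 points over all L1Md loci). With PlaB both marks overlapped too (H3K4me3 33.4%, 31.8% and 34.6% in *Obox4* KO). Without PlaB, however, more L1Md bases lay under both active marks in every *Obox4* KO list than in any WT list (means of 2.15% against 1.92% for H3K4me3 and 1.08% against 0.756% for H3K27ac). The genome under H3K27ac was also larger on average in *Obox4* KO (1.92% against 1.52%), with overlap. The genome under H3K4me3 was smaller in every *Obox4* KO list (2.04% against 2.55%). Every *Obox4* KO list was also above every WT list over all L1Md loci at a −log10 q of 10 or more. The genome share at that threshold is not given here. There H3K27ac was on 1.45%, 1.78% and 1.28% in *Obox4* KO against 0.398%, 0.829% and 0.944% in WT. H3K4me3 was on 3.34%, 4.04% and 3.86% against 3.19%, 3.31% and 3.10%. With PlaB both marks overlapped at this threshold. With PlaB H3K27me3 was on 4.00%, 3.93% and 7.10% of full-length L1Md loci in *Obox4* KO and on 3.25%, 1.98% and 1.28% in WT. The genome under H3K27me3 was 4.10%, 4.18% and 6.17% against 4.62%, 4.31% and 3.27%, so the groups overlapped there, as they did over all L1Md loci (means of 1.78% and 1.07%). Without PlaB the full-length values were 3.16%, 4.65% and 4.71% in *Obox4* KO and 3.45%, 3.36% and 2.53% in WT.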

How the data were processed

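LINE-1 RNA was read from the repeat tables of 5 RNA-seq experiments (41 libraries). Per the study's methods, fastp (v0.23.2) was used for trimming and STAR (v2.7.9a) for alignment to GRCm38.p6, and the authors ran featureCounts (v2.0.1) on genes and on mm10 RepeatMasker repeats, splitting multi-mapping reads into fractions for repeats and discarding them for genes. The deposited repeat values are thus expected counts, summed over the loci of a name, and the deposited gene values are counts. The deposited blastomere tables hold fractional counts made without strand, per the file headers. Fractional counting cannot place a read of a young LINE-1 on 1 copy, and strand settings of the other tables are not given in the sources used here. For peaks, the authors used Bowtie2 (v2.4.1) and MACS3 (v3.0.0a6) on each replicate. The deposited columns used are −log10 q and fold enrichment, a ratio of signal to background. The scaled peak score was deposited too.

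Expected counts were rounded and fitted with edgeR (4.0.16) in R (4.3.3) per experiment, over all repeat names that passed its filter on low counts, with TMM scaling over repeats and a quasi-likelihood model holding all groups. Calls needed 2-fold and a p of 0.01 or less after Benjamini-Hochberg adjustment. DESeq2 (1.42.0), TMM of the genes table, no filter, a looser threshold, a replicate block and leaving out each library were the alternatives. Replicate pairs of a group differed beyond counting noise, so none was merged. Peaks were compared by an overlap of at least 1 base on chromosomes 1 to 19, X and Y. Code was tested on simulated data.

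The L1Md names, names called with the largest changes, the 3 other names with the most counts, and regulator genes that were called or listed beforehand are named. The members, lists and tests were chosen with earlier results of these data known. 3 IgG samples with conflicting labels were left out. IgG and untagged FLAG libraries were not analysed here, and intervals cover counting error only.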

Additional observations from a re-analysis of the deposited data

Results flagged for a closer look

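In 2C-embryos the effect of the anti-*Obox4* ASO differed with *Dux* lowered and with *Dux* present for L1Md_F (0.43 on the log2 scale, adjusted p = 0.0184, edgeR interaction term) and L1Md_A (0.51, adjusted p = 0.0434). Total ASO dose fell from scramble to *Obox4* KD and rose from *Dux* KD to DKD, so dose and *Dux* background cannot be told apart there. In PlaB mESCs the effect of the *Obox4* KO differed between the *Dux* KO and WT backgrounds for L1Md_Gf (1.48, adjusted p = 0.0223), Lx2A (0.78, adjusted p = 0.0135), L1Md_T (1.1, adjusted p = 0.0485) and Lx3_Mus (0.46, adjusted p = 0.0481). With library sizes of the genes table the differences were 0.46 (adjusted p = 0.0242) for L1Md_F, 0.53 (0.0343) for L1Md_A, 1.23 (0.00614) for L1Md_Gf, 0.85 (0.0733) for L1Md_T, 0.54 (0.267) for Lx2A and 0.21 (0.615) for Lx3_Mus, so those of L1Md_T, Lx2A and Lx3_Mus no longer passed 0.05. For Lx2A and Lx3_Mus the *Obox4* KO gave −0.78 and −0.39 in WT and −0.01 and 0.08 on the *Dux* KO background. The share of all repeats that passed an adjusted p of 0.05 for the interaction term is not given here. The LINE-1 names that passed therefore cannot be read as particular among repeats.

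DUX peaks, present as 1 list of 1802 peaks, overlapped 118 of 126315 L1Md loci (0.0934%). They covered 0.0465% of L1Md bases, 0.0361% of repeat bases and 0.0265% of the genome. L1Md_A held 80 of these loci, and among full-length L1Md_A loci 53 of 3294 were overlapped (1.61%, 95% Wilson interval 1.23% to 2.1%), against 10 of 5045 full-length L1Md_T loci (0.198%). With 1 list there was no replicate check, and no control list was used.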

How the results depend on the processing

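Of 204 alternative values, 155 stayed close to the reported value and 49 moved further. Close meant within the replicate spread for histone differences, within the Wilson interval for OBOX4 shares and within 1.5 times for counts. The Wilson interval covers counting error and not the spread between lists. No called value changed sign. Of the differences whose groups overlapped, those of H3K27me3 did, from −0.03 to 1.06 points in *Obox4* KO on full-length loci and from −0.087 to 0.075 points with PlaB without PlaB replicate 3. At an adjusted p of 0.05 with no fold minimum, the LINE-1 names called numbered 1 in *Obox4* KD, 21 in *Dux* KD, 40 in DKD, 32 and 23 in the rescue against scramble and against DKD, and 8, 22 and 42 in *Obox4* KO, *Dux* KO and DKO mESCs. The share of all repeats at this threshold is not given here, so these counts cannot be read as particular to LINE-1. At 0.01 with no fold minimum, 0.378%, 3.22%, 10.6%, 5.39%, 4.07%, 2.85%, 10.2% and 14.6% of repeats passed in the same order. With library sizes of the genes table, the LINE-1 names called at the main threshold were 2 in the rescue against scramble and 2, 6 and 85 in *Obox4* KO, *Dux* KO and DKO, all lower, beside 38, 81 and 417 repeats called lower. L1Md_F in *Dux* KO was the 1 L1Md name among them. Without the filter on low counts 1 was called in Het blastomeres and 0 in *Obox4* KO mESCs, and DESeq2 called 1 in morulae and 4 in DKO mESCs. Leaving out 1 library at a time gave 0 to 1 calls in DKD 2C-embryos (0 without scramble replicate 1, 1 without each of the others), 0 to 1 in morulae (1 without DKD replicate 1), 0 to 2 in Het blastomeres (2 without Het replicate 2), 0 to 0 in *Obox4* KO, 1 to 2 in *Dux* KO (2 without *Dux* KO replicate 2) and 1 to 3 in DKO mESCs (1 without DKO replicate 1 or any WT replicate). Where a group was left with 1 library, it was assumed to vary like the other groups. The causes of these moves were not tested.

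Replicate numbers did not pair the libraries: no comparison with 3 pairs had every correlation of deviations over 0.1. With a replicate block 1 LINE-1 name was called in DKD 2C-embryos and 0 in *Obox4* KO mESCs, and no other count moved by over 1.5 times. A crossed block, added after the data were seen where the correlation of 2 pairs was −0.109 (rescue against scramble) and −0.131 (Het blastomeres), gave 1 and 0 calls, as without it.

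OBOX4 regions lay on 0.911% of L1Md loci with peaks of any list, 0.283% with those of all 3 lists, 0.0934% at a −log10 q of 10 or more, 3.63% for full-length loci, and 0.313% to 0.397% without 1 list. For histone peaks, full-length loci gave differences of 4.73 (H3K27ac), −0.943 (H3K27me3) and 2.63 points (H3K4me3) with PlaB, and of 4.17, 1.06 and 2.7 points in *Obox4* KO. At a −log10 q of 10 or more the H3K4me3 difference in *Obox4* KO was 0.547 points.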
